A study of Mus musculus with 6 samples.

Results

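The genes of the proteasome, the protease complex that degrades ubiquitin-tagged proteins, were followed in mouse brain, in Dap12 knockouts and heterozygotes. Members were all probe sets (groups of short array probes designed against 1 transcript) whose single gene symbol in the platform annotation begins with Psma, Psmb, Psmc, Psmd, Psme, Psmf or Psmg and a digit. The rule found 103 of the 45101 probe sets in the table, and they belong to 49 genes. Of these genes, 47 encode subunits, activators, an inhibitor or assembly factors. The other 2, Psmc3ip, a meiotic recombination factor named after its binding partner, and Psme3ip1, a protein that binds the activator Psme3, are not parts of the proteasome. A probe set shared by Psme2 and Psme2b carries more than 1 symbol and fell outside the rule.

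The 6 arrays held total RNA of 3 samples labelled Dap12-ko (named 67, 68 and Ko1) and 3 labelled Dap12-het (75, 76 and 81), all from mice at 1 month of age. Dap12 is the product of Tyrobp, an adaptor for receptors of microglia and other myeloid cells. The design text gives the tissue as midbrain with diencephalon and basal ganglia and counts separate mice, so p-values measure the spread between these mice as processed here. How the Dap12 allele was made and the mouse strain are not given in the labels, the heterozygous mice also carry 1 copy of the disrupted gene, and the same source description, of Dap12-deficient brain, is attached to both groups.

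The complete proteasome consists of a 20S core and a 19S cap. The core stacks rings of alpha subunits, which form the gate, around rings of beta subunits, some of which carry the active sites. The cap recognises ubiquitin, and its ATPases unfold the substrate and open the gate. Other activators can take the place of the cap, and under interferon the catalytic beta subunits are exchanged for those of the immunoproteasome, which is abundant in immune cells and favours peptides for antigen presentation. In neurons the system turns over synaptic and misfolded proteins.

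The signal of Tyrobp was 2.277, 23.67 and 12.89 in the knockouts (67, 68 and Ko1, the order kept throughout) and 70.67, 68.19 and 77.6 in the heterozygotes (75, 76 and 81), so each array had the level its label called for. The arrays differed in more than genotype. Each had the same trimmed mean of 100, yet median signals ran from 24.68 to 40.41 in the knockouts and from 20.34 to 21.98 in the heterozygotes. The median of 18 spiked control probe sets ran from 1370 to 3100 against 356 to 376. The 3′ to 5′ signal ratio of actin, a sign of RNA integrity, was 1.76 to 2.33 against 1.59 to 2.12, and that of Gapdh 0.7 to 1.21 against 1 to 1.42. All 10 neuronal and all 10 astrocyte marker genes were above the filter on level. Of 23 tested probe sets of 9 oligodendrocyte markers 8 rose, against 1.24% of all tested. The 8 belong to Mbp, Mal and Mobp. Those of Cnp, Mag, Cldn11, Mog, Ermn and Opalin did not pass (limma, changes of -0.05 to 1.49). The markers' summed signal was 28800 to 67200 on knockout and 21100 to 21700 on heterozygous arrays. Mbp held the largest part, at 36160, 24720 and 11660 against 5913, 6439 and 5799 on its brightest probe set. Of 21 neuronal marker probe sets 4 rose, with sums of 20600 to 28200 against 19300 to 20800. The 4 are dimmer probe sets of Map2 and Syt1, whose brightest changed by 0.06 ± 0.18 and 0.27 ± 0.19. Groups did not overlap for 7 neuronal probe sets higher and 2 lower (14.9% and 12.5% of all tested). The 7 higher are those 4, the brightest probe set of Rbfox3 (0.93 ± 0.21) and 2 of Snap25 (0.88 ± 0.19 on the brightest, 0.92 ± 0.21 on the other). Those of Rbfox3 and Snap25 did not pass, and the other tested Rbfox3 probe sets changed by -0.36 ± 0.32 and -0.35 ± 0.25. The 2 lower, of Syp (-1.03 ± 0.21) and Tubb3 (-0.44 ± 0.17), did not pass either. Of 29 astrocyte marker probe sets 1 rose, with sums of 18300 to 20100 against 12900 to 15700. It was the brightest of Glul, at 5121, 5944 and 3249 against 2207, 2230 and 1912 (1.13 ± 0.23). Changes were above 0 in 20 of the 29 (50.1% of all tested). The brightest probe sets of Gfap, Slc1a2 and Slc1a3 changed by -1.25 ± 0.52, -0.11 ± 0.29 and -0.11 ± 0.26. The part of these differences in the results below was not tested, and a changed number of cells of a type cannot be told apart from a changed amount of RNA per cell.

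As reference points for the promoters of these genes, the element TGACNNNGC was searched on both strands. It is the core of the antioxidant response element, through which Nfe2l1 raises proteasome genes when proteasome activity is low. Of the 49 member genes, 41 had an entry among RefSeq promoters of GRCm38.p6 (250 bases before to 50 after the start), with 44 promoters in all. Psma8, Psmb1, Psmb2, Psmb7, Psmc3, Psmd3, Psmd7 and Psmg2 had none. The element stood in 6 of the 44 (13.6%), against 4071 of 32851 promoters in all (12.4%). The 6 matches are shown on the gene's own strand with the element, or its reverse complement, in capitals, to set beside the changes of their genes.
Psmb5, chr14:54618014-54618062, minus strand: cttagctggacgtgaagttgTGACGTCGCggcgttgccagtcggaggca
Psmb6, chr11:70525328-70525356, plus strand: cagaggcggactaaagagagTGACGGAGC
Psmd9, chr5:123228139-123228187, plus strand: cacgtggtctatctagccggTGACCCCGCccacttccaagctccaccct
Psmd12, chr11:107479278-107479309, plus strand: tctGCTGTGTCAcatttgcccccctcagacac
Psmc6, chr14:45329577-45329625, plus strand: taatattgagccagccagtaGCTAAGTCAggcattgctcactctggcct
Psme4, chr11:30771758-30771776, plus strand: cgctgcggctGCAGCGTCA

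Most proteasome probe sets differed little between the groups. Differences are given as log2 changes, knockout minus heterozygous, of log2(signal + 16), with standard errors from limma, and a probe set is said to have risen or fallen where the limma p, adjusted by Benjamini-Hochberg over all probe sets tested, was under 0.05. Of the 103 probe sets, 75 (45 genes) were bright enough to be tested. One of the 75 rose, a probe set of Psma5, and 1 fell, a probe set of Psme3, together 2.67%, whereas 1.98% of all 22518 tested probe sets were called, 1.24% higher and 0.733% lower. The share of members called was therefore close to the background. An unadjusted p under 0.05 was reached by 11 members (14.7%), 2 higher and 9 lower, against 20.9% of all. The 2 groups did not overlap for 18 members (24%), 10 of them higher and 8 lower on knockout arrays, against 27.4% of all (14.9% higher and 12.5% lower).

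The members' changes centred on 0 and were mostly small. Their median was 0.01, with 38 of 75 above 0 (50.7%), beside a median of 0 and 50.1% above 0 over all tested. The median size of a change was 0.17 for members and 0.32 for all. A change of at least 1 in size was seen in 2 members, Psme3 and a dim Psma3 probe set (2.67%), against 6.94% of all. In 4 of the 75, that Psma3 probe set, 2 of Psmb1 and 1 of Psmc2, the mean of 1 group lay below the filter, so they were tested because the other group was higher. For 57 of the 75 (76%) the 95% interval lay within 1 on either side of 0, that is within a 2-fold change, against 53.5% of all. The members were also brighter, with a median mean signal of 408 against 109, and brighter probe sets had smaller errors. Among probe sets with a mean signal above 200 the median size was 0.17 for 50 members and 0.31 for 7045 in all, and the median change was 0.01 against -0.12. Centring each array on its median lowered the median change to -0.39 for members and -0.40 for all, so the directions of small changes, such as that of Psmb6 (0.19, or -0.21 after centring), hold for the deposited scaling.

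**Figure D1:**
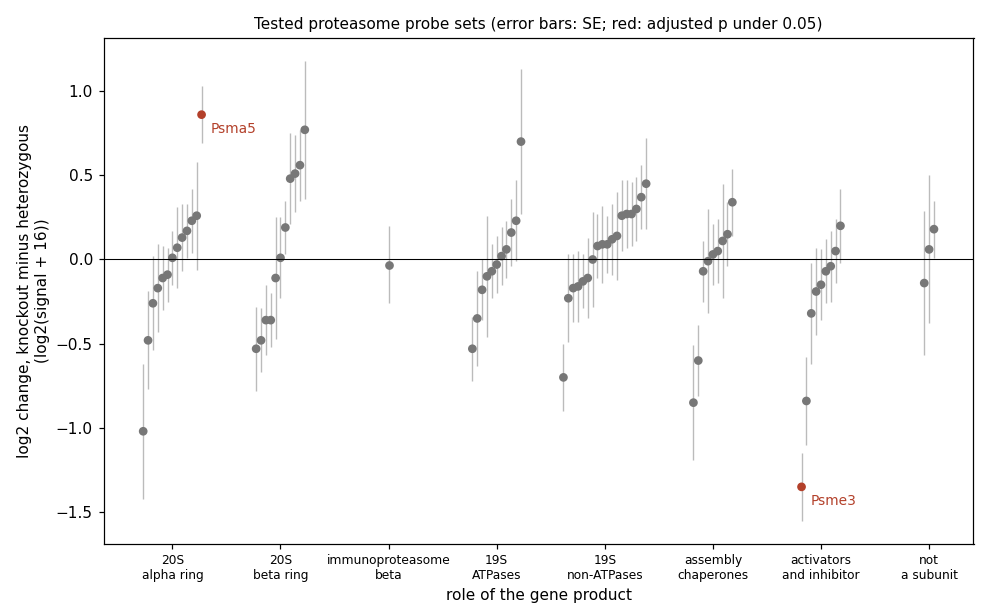
Log2 change (knockout minus heterozygous, vertical axis) of each of the 75 tested probe sets, grouped by the role of the gene product, with bars for the standard error. Only Psma5 at 0.86 and Psme3 at -1.35 passed the adjusted threshold, and most other points lie within 0.5 of 0.

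The alpha ring, encoded by Psma1 to Psma7 with the testis form Psma8, had 18 probe sets, of which 13 were tested. Of these 1 rose, 0 fell (limma; 2 at an unadjusted p under 0.05) and the median change was 0.01. The rise was in Psma5, one of the alpha subunits. Its brightest probe set, 1434356_a_at, read 1325, 1433 and 1074 in the knockouts and 693, 681.2 and 700.7 in the heterozygotes. Every knockout array stood above every heterozygous array, and the heterozygous arrays lay close together. The means were 1280 ± 184 and 692 ± 9.84 (SD, n = 3), a change of 0.86 ± 0.17 (limma adjusted p = 0.0475; the exact permutation test gave p = 0.1, the least that 3 against 3 allow). The call was lost with quantile normalization (0.92, limma adjusted p = 0.0619) and with arrays centred on their medians (0.46, limma adjusted p = 0.157). It was also lost when any array but Ko1 was left out (0.77 to 0.87, limma adjusted p = 0.124 to 0.225). In those fits at most 0.129% of all tested probe sets were called.

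A second Psma5 probe set, 1424681_a_at, did not share the rise. It read 450.1, 473.2 and 540 in the knockouts and 606.3, 524.9 and 456.5 in the heterozygotes, which overlapped (-0.11 ± 0.19, limma adjusted p = 0.775). The difference between the 2 probe sets, taken within each array, was 0.97 larger in the knockout group and did not overlap between groups (exact permutation p = 0.1, the least it allows). The 2 probe sets of Psma5 thus gave different readings of the gene.

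The other alpha subunits had bright probe sets with small changes. Psma4 changed by 0.01 ± 0.16, Psma3 by -0.09 ± 0.16 and Psma2 by 0.13 ± 0.20. Psma7, on its brighter probe set, did not overlap between groups at 651.7, 660.1 and 745.5 against 639.2, 605.2 and 572.6, yet the change was 0.17 ± 0.16 (limma adjusted p = 0.584). Psma6 gave changes of -0.48 ± 0.29, 0.23 ± 0.19 and 0.26 ± 0.32 on its 3 tested probe sets. The change furthest from 0 in the ring was in the dim Psma3 probe set, at 29.51, 2.567 and 21.39 against 37.07, 40.21 and 73.23 (-1.02 ± 0.40, limma adjusted p = 0.192). It passed the filter through the heterozygotes, the knockout mean lying below it, so its change supports nothing about the ring. Psma8 was too dim to be tested, at most 22 on any array.

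The beta ring, Psmb1 to Psmb7, had 11 probe sets, all tested, of which 0 passed (limma; 3 at an unadjusted p under 0.05). Its changes were the most spread of the roles with more than 3 probe sets tested, with a median size of 0.48 around a median of 0.01. For 6 of the 11 the groups did not overlap, 4 higher and 2 lower, beside the 27.4% of all tested given above. Of the 4 higher, 2 are dim Psmb1 probe sets that passed the filter through the knockouts, their heterozygous means lying below it. The brightest Psmb1 probe set, for a beta subunit without an active site, read 586.3, 654.9 and 858.8 in the knockouts and 965.7, 965 and 972.7 in the heterozygotes. All knockout arrays were lower, with Ko1 nearest to the heterozygous arrays (-0.48 ± 0.19, limma adjusted p = 0.197). The 2 dimmer Psmb1 probe sets pointed the other way, at 0.77 ± 0.41 and 0.48 ± 0.27, and neither passed. Psmb2 changed by 0.51 ± 0.23 and Psmb4, on its brighter probe set, by -0.53 ± 0.25. Psmb3 gave 0.56 ± 0.21 on 1 probe set and 0.01 ± 0.24 on the brighter one.

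The catalytic subunits did not move as a group. Psmb5, which carries the chymotrypsin-like site and whose promoter holds the element printed above, read 755.6, 804.7 and 737.8 in the knockouts and 1036, 995.6 and 934.1 in the heterozygotes. The groups did not overlap, and the change was -0.36 ± 0.16 (limma adjusted p = 0.234). Psmb6, which carries the caspase-like site and also has the element, read 882.6, 781.2 and 846.4 against 743.1, 673.5 and 780.2. Here the knockout arrays were all higher, the closest pair being 781.2 and 780.2 (0.19 ± 0.16, limma adjusted p = 0.542). Psmb7, which carries the trypsin-like site, read 1558, 1695 and 2517 against 2627, 2456 and 2181 (-0.36 ± 0.21, limma adjusted p = 0.362). Knockout 67 and 68 were below the heterozygous arrays for Psmb7 and Ko1 was among them. Without Ko1 the change was -0.57 and passed (limma adjusted p = 0.0143), and without 67 and 68 together it was 0.06 (limma adjusted p = 0.829).

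The immunoproteasome subunits gave no tested rise. Psmb8, the inducible counterpart of Psmb5, read 2.452, 31.48 and 10.19 in the knockouts and 10.99, 11.73 and 13.86 in the heterozygotes. Psmb9, the counterpart of Psmb6, read 11.08, 47.07 and 22.86 against 18.8, 15.81 and 13.97. Both were highest on knockout 68 and lowest on knockout 67, the groups overlapped, and both lay below the filter on level, so no change was tested. A second, dimmer Psmb8 probe set, also untested, read 8.65, 10.38 and 8.393 against 7.22, 2.863 and 3.309. Every knockout array was above every heterozygous array there, as for 18.8% of all untested probe sets. Psmb10, the counterpart of Psmb7, was tested and read 195.1, 272.4 and 258.5 against 297.8, 260.8 and 186.9 (-0.03 ± 0.23, limma adjusted p = 0.963, 95% interval -0.56 to 0.51). Psmb11, the form of the thymus, stayed at or below 16.36 on every array.

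**Figure D2:**
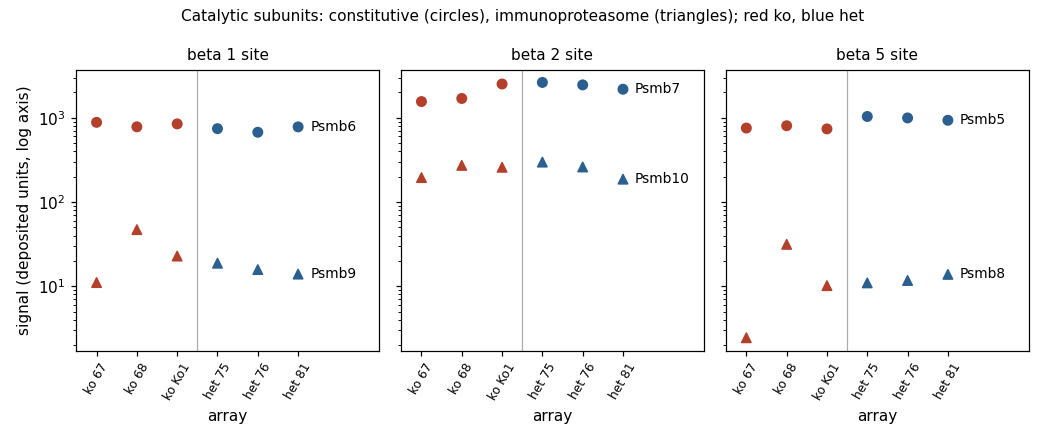
Signal on each array (log axis) of the brightest probe set of the constitutive catalytic subunits Psmb6, Psmb7 and Psmb5 (circles) and of their immunoproteasome counterparts Psmb9, Psmb10 and Psmb8 (triangles), knockout in red and heterozygous in blue. Psmb8 and Psmb9 were dim and scattered on the knockout arrays (2.452 to 31.48 and 11.08 to 47.07), and probes differ in brightness, so heights of different genes are not levels to compare.

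Genes that act with the immunoproteasome were set beside it. In the interferon response list, 14 probe sets of 13 genes were tested and 0 passed by limma, with a median change of 0.40. An unadjusted limma p under 0.05 was reached by 6 of the 14, against 20.9% of all tested. Groups did not overlap for 4 higher and 0 lower (14.9% and 12.5% of all tested). The smallest p of the list was that of Ifit3, tested because the knockouts were above the filter, at 1.21 ± 0.38 (limma adjusted p = 0.129). Next was Irgm1, an interferon-induced GTPase, at 0.57 ± 0.21 (limma adjusted p = 0.171). Of 17 probe sets for class I antigen loading, groups did not overlap for 1 higher and for 6 lower, of Calr, H2-D1 and H2-K1. By limma 0 of the 17 rose and 1 fell, with a median change of -0.32. That one belongs to Calr, a chaperone of the endoplasmic reticulum, at 687.7, 653.9 and 921.7 against 1919, 1810 and 2071 (-1.35 ± 0.18, limma adjusted p = 0.0205), and the brightest Calr probe set changed by -1.33 ± 0.30 (limma adjusted p = 0.0619). H2-D1, a class I heavy chain, changed by -1.87 ± 0.51 (limma adjusted p = 0.0925). Of 19 microglial marker probe sets 0 passed by limma, and 5 had an unadjusted limma p under 0.05. Groups did not overlap for 7 higher, of C1qa, C1qb, Ctss, P2ry12 and Siglech, and for 2 lower, of Tmem119 and Laptm5. The markers' summed signal was 3490 to 3960 on knockout and 2460 to 2970 on heterozygous arrays. Of the lymphocyte and blood markers 2 of 7 genes were bright enough to be tested.

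The ATPases of the cap base, Psmc1 to Psmc6, which unfold substrates, had 12 probe sets, 11 tested, and 0 passed (limma; 1 at an unadjusted p under 0.05). The median change was -0.03, and the 95% interval lay within a 2-fold change for 10 of the 11. Psmc5 had the smallest p, at 968.7, 1085 and 1435 in the knockouts and 1833, 1631 and 1533 in the heterozygotes. All knockout arrays were lower, with Ko1 again nearest (-0.53 ± 0.19, limma adjusted p = 0.166). Psmc3 changed by -0.03 ± 0.17, Psmc1 by 0.16 ± 0.20 and Psmc6, on its brightest probe set, by 0.06 ± 0.17. The changes of the 3 Psmc2 probe sets were 0.02 ± 0.17, -0.18 ± 0.18 and 0.70 ± 0.43, the last a dim one at 87.34, 36.98 and 15.03 against 19.46, 16.36 and 18.74.

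Of the other subunits of the cap, 18 of 27 probe sets were tested and 0 passed (limma; 1 at an unadjusted p under 0.05), with a median change of 0.09. That one was Psmd3, a scaffold subunit of the lid, at 203.4, 246.2 and 274.4 against 380.6, 361.5 and 465.3. The groups were well apart (-0.70 ± 0.20, limma adjusted p = 0.101, 95% interval -1.16 to -0.25). The ubiquitin receptor Psmd4 gave 0.27 ± 0.20 and -0.16 ± 0.21 on its 2 tested probe sets. Psmd14, the deubiquitinase of the lid, read 697.2, 663.6 and 1305 against 978.3, 979.5 and 1022, so the knockout arrays stood on both sides of the heterozygous ones (-0.23 ± 0.26). Psmd11, a lid subunit, had 8 probe sets; its brightest read 2338, 2181 and 1140 against 1381, 1129 and 1442 (0.45 ± 0.27). The large base subunits Psmd1 and Psmd2 changed by 0.09 ± 0.17 and -0.13 ± 0.16. The remaining lid subunits Psmd6, Psmd7, Psmd8, Psmd12 and Psmd13 changed by -0.11 to 0.37 over their tested probe sets.

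Psmc4 and Psmd8 are the 2 member genes within 10 Mb of the disrupted gene, Tyrobp, among RefSeq genes of GRCm38.p6. Psmd8 did not overlap between groups, at 516, 603.3 and 580.8 against 515.3, 514.1 and 378.5 (0.27 ± 0.19, limma adjusted p = 0.451). The Psmc4 probe sets changed by 0.23 ± 0.24 and -0.07 ± 0.16 and overlapped.

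Among assembly chaperones, 9 of 13 probe sets were tested and 0 passed (limma; 2 at an unadjusted p under 0.05), with a median change of 0.03. Both of the 2 belong to Psmg2, which pairs with Psmg1 to build the alpha ring. The brightest by mean log2 level read 112, 103.6 and 150.4 against 201.5, 175.1 and 196.2, all knockout arrays lower (-0.60 ± 0.21, limma adjusted p = 0.153). The other read 72.32, 85.16 and 176.4 against 231.4, 245.3 and 140, with Ko1 above heterozygous 81 (-0.85 ± 0.34, limma adjusted p = 0.199). Its partner Psmg1 changed by -0.07 ± 0.18, and Psmg3 and Psmg4 by 0.05 ± 0.19 and -0.01 ± 0.31. Of the chaperones of the cap base, Psmd10 (gankyrin) did not overlap at 165.3, 179.4 and 185.5 against 154.3, 149.7 and 109.1 (0.34 ± 0.20, limma adjusted p = 0.38), and Psmd5 changed by 0.03 ± 0.18.

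Among activators and the inhibitor, 9 of 14 probe sets were tested, 0 rose, 1 fell and the median change was -0.15. The fall was in Psme3, the nuclear activator PA28 gamma, which opens the core to unfolded substrates without ubiquitin. Its probe set 1418078_at read 95.9, 98.21 and 82.43 in the knockouts and 296, 268.5 and 217.3 in the heterozygotes. The 3 knockout arrays lay together, far below the lowest heterozygous array. The means were 92.2 ± 8.52 and 261 ± 40 (SD, n = 3), a change of -1.35 ± 0.20, to 0.39 of the heterozygous level on the scale with 16 added (limma adjusted p = 0.0264; the exact permutation test gave p = 0.1, the least it allows). The call held with quantile normalization and with arrays centred on their medians. It was lost when any array but Ko1 was left out (-1.46 to -1.26, limma adjusted p = 0.083 to 0.188). In those fits at most 0.129% of all tested probe sets were called.

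The brighter Psme3 probe set, 1418079_at, read 250, 196.2 and 201.8 against 200.6, 223.7 and 199.5. The groups overlapped fully and the change was 0.05 ± 0.19 (limma adjusted p = 0.917, 95% interval -0.39 to 0.48). Within arrays the distance between the 2 probe sets differed by 1.39 between the groups, and by 1.55, 1.19 and 1.44 for the 3 knockouts against the mean of the heterozygotes (exact permutation p = 0.1, the least it allows). Whether Psme3 transcripts as a whole were lower was therefore not settled by these arrays.

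Psme1, a subunit of the interferon-induced activator PA28, read 358.8, 373.1 and 384.4 against 458.5, 397.6 and 330.7 (-0.07 ± 0.19, limma adjusted p = 0.857). The probe set shared by its partner Psme2 and by Psme2b, outside the rule, changed by -0.13 ± 0.22. Psme4, the activator PA200, read 165.4, 94.53 and 232.3 against 166.5, 210.6 and 220.1 on its brightest probe set (-0.32 ± 0.30, limma adjusted p = 0.576). Psmf1, the inhibitor PI31, had 3 tested probe sets. The brightest read 144.8, 139.1 and 99.27 against 112, 119.6 and 94.09 (0.20 ± 0.22, limma adjusted p = 0.646). The dimmest, 1424369_at, read 32.66, 41.25 and 52.29 against 118.6, 75.05 and 73.94, all knockout arrays lower (-0.84 ± 0.26, limma adjusted p = 0.12). The third changed by -0.04 ± 0.21. Of the genes that are not subunits, Psme3ip1 changed by 0.18 ± 0.17 and the 2 Psmc3ip probe sets by -0.14 ± 0.43 and 0.06 ± 0.44.

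Probe sets of 1 gene often disagreed, among members and over the whole table. Of 21 member genes with at least 2 tested probe sets, 12 had changes on both sides of 0 (57.1%), as did 61.5% of 5190 genes in all. Over the 40 member pairs the median size of the difference between changes was 0.29, against 0.50 over 13593 pairs in all. For 7 member pairs (17.5%, against 34.1% of all pairs) the within-array difference did not overlap between groups, 1 of Psma5, 1 of Psme3, 2 of Psmb1, 2 of Psmf1 and 1 of Psmc2. By Affymetrix naming, probe sets ending in x_at or s_at can hold probes that match other transcripts, so their values may include them. Such sets were tested for Psma6, Psmb1, Psmb4, Psmc2, Psmd11, Psmd13, Psmc6, Psme4, Psmf1 and Psmc3ip. Those of Psma1, Psmb8 (its dimmer one) and Psmc1 were not tested. The H2-D1 probe set and the Calr probe set that fell, given above, also end in x_at. With the brightest probe set of each gene as its only one, 0 of 45 member genes passed (limma; 7 at an unadjusted p under 0.05), against 1.01% of 11467 genes.

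**Figure D3:**
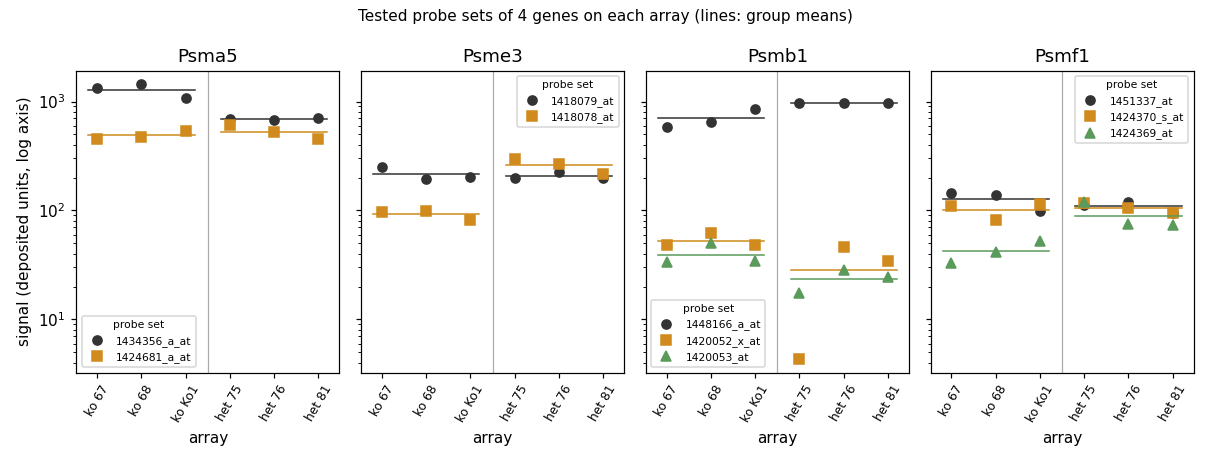
Signal (log axis) of the tested probe sets of Psma5, Psme3, Psmb1 and Psmf1 on each array, with a symbol and colour per probe set and lines at the group means. In Psma5 the brighter probe set separates the groups (1074 to 1433 against 681.2 to 700.7) while the other does not, and in Psme3 the dimmer one separates them (82.43 to 98.21 against 217.3 to 296) while the brighter does not.

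The 3 knockout arrays did not behave alike, over the proteasome as over the whole table. The median distance of a member from the heterozygous mean was 0.30 on knockout 67, 0.31 on 68 and 0.21 on Ko1, and 0.09 to 0.14 on the heterozygous arrays. Over all tested probe sets it was 0.47, 0.43 and 0.34, and 0.11 to 0.15. Each heterozygous array is part of the mean it was measured from, which by itself makes its distance smaller than that of a knockout array. Over the 75 members, whose levels span a wide range and so correlate on any pair of arrays, knockout 67 and 68 correlated at 0.973, and Ko1 correlated with heterozygous arrays at 0.959 to 0.978, compared with 0.939 and 0.951 with knockout 67 and 68. For 39 of the 75 members (52%), knockout 67 and 68 both lay outside the heterozygous range on the same side, against 54.3% of all tested. In 21 members (28%, against 26.8% of all) Ko1 did not lie on that side with them, and in 10 (13.3%, against 12.9% of all) it lay outside on the opposite side. These shares were close to those of the whole table, so the pattern is not particular to the proteasome. The 10 include Psma1, Psma6, Psmd14, Psmd4 and Psmg4. Psma6, on its brightest probe set, read 819.5 and 752.8 on knockout 67 and 68, 1685 on Ko1 and 1324 to 1488 on the heterozygous arrays. Psmg4 read 145.7 and 149.8 on 67 and 68, 62.36 on Ko1 and 103.1 to 123.9 on the heterozygous arrays.

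**Figure D4:**
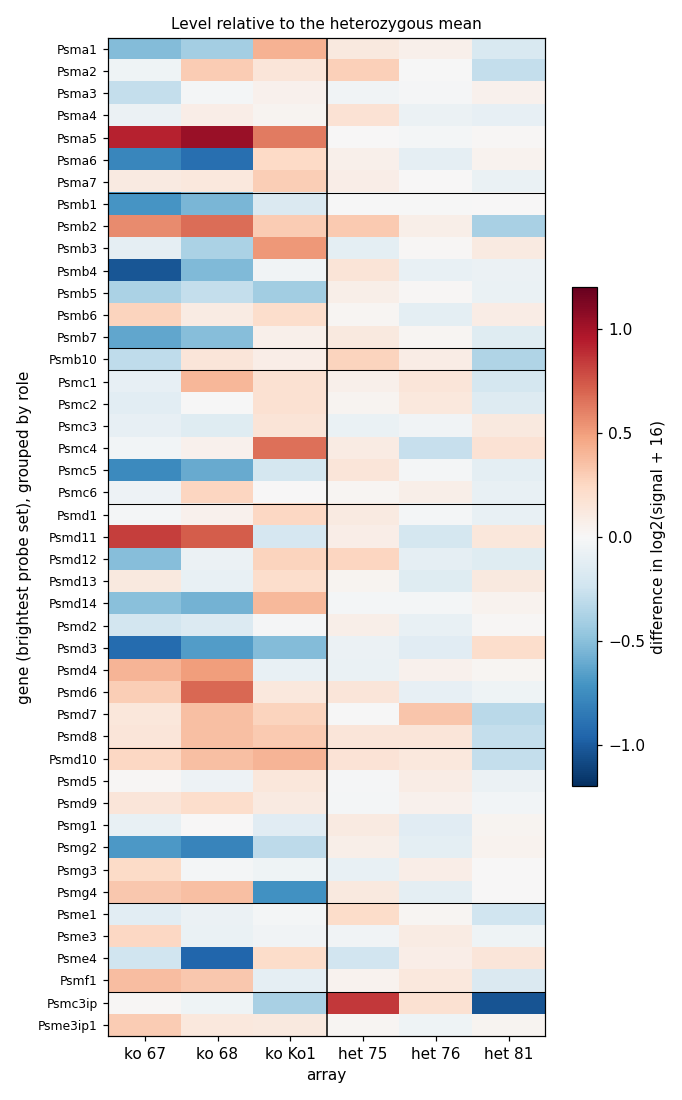
Difference in log2(signal + 16) from the heterozygous mean on each of the 6 arrays (columns) for the brightest probe set of each of 45 tested genes (rows, grouped by role in the order of the text). Psma5 is raised on all 3 knockout arrays, whereas for Psma1, Psma6, Psmd14 and Psmg4 knockout 67 and 68 lie on 1 side of the heterozygous arrays and Ko1 on the other.

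The number of calls changed when arrays were left out. Without Ko1, 16 of 75 members passed (21.3%), 5 higher and 11 lower, against 23.2% of all tested. The lower ones were Psme3, both Psmg2 probe sets, Psmf1, Psma6, Psmd3, Psmb4, Psmc5, Psmb1, Psmb7 and Psmd14, with changes from -1.28 to -0.54. The higher ones were Psma5 at 0.98, Psmd11 at 0.78, Psmb3 at 0.70, Psmd4 at 0.45 and the dim Psmc2 probe set at 1.12, which passed the filter only through knockout arrays. Without Ko1 and heterozygous 81 together 18 passed, 5 higher and 13 lower (24%, against 20.8% of all). The filter was set anew on the arrays left. The 5 higher include a dim Psmd11 probe set at 1.56 that was not tested on all 6 arrays. It read 65.68 and 52.77 on knockout 67 and 68 against 10.22 and 8.719 on heterozygous 75 and 76, so it passed the filter through the knockouts. Without knockout 67 and 68 together, with the spread of the 1 knockout array left taken from the heterozygous arrays, 1 of 74 passed, Psme3 (1.35%, against 2.75% of all). Without knockout 67, knockout 68 or any 1 heterozygous array, 0 members passed (limma; 4 to 8 at an unadjusted p under 0.05).

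**Figure D5:**
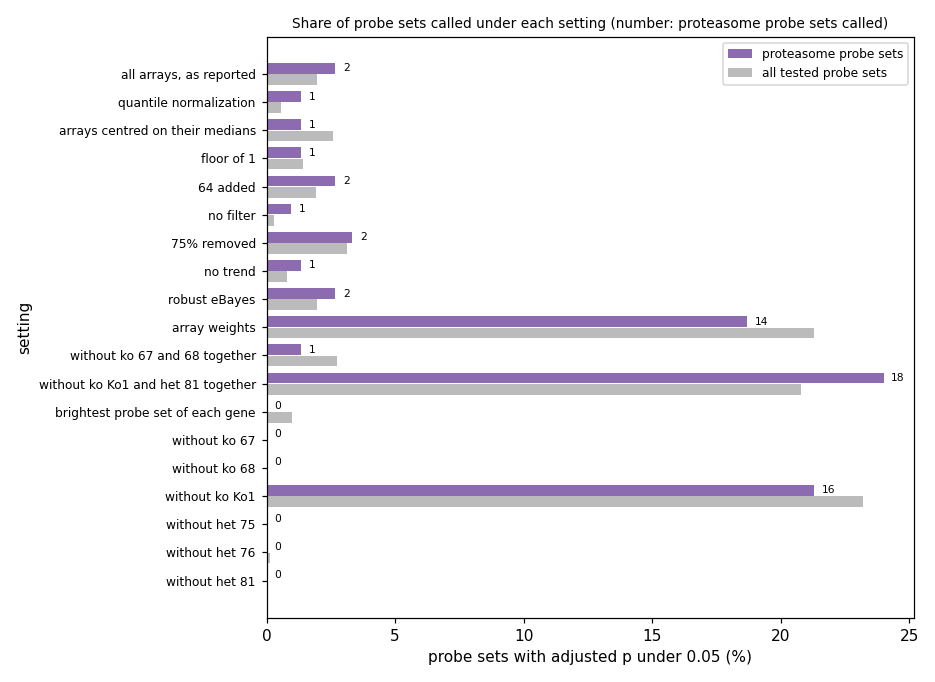
Share of probe sets with an adjusted p under 0.05 among the tested proteasome probe sets (purple) and among all tested probe sets (grey) under each setting, with the number of proteasome probe sets called. Both shares are 0 without knockout 67, 21.3% and 23.2% without Ko1, and 24% and 20.8% without Ko1 and heterozygous 81.

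Of the 28 members too dim to be tested, mean signals ran from 1.46 to 27.2, and 22 (78.6%) had a higher mean on knockout arrays, as did 80.2% of all untested probe sets. In 7 of them all knockout arrays were above all heterozygous arrays (25%, against 18.8% of all untested), for example a Psmd7 probe set at 31.03, 32.43 and 31.53 against 13.2, 16.36 and 9.364. None of the 28 was lower on all knockout arrays, compared with 2.32% of all untested. The members nearest to the filter, which was set on the mean log2 value, were a tested Psmc2 probe set with a mean signal of 32.3 and an untested Psmd11 probe set at 27.2.

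Partners of the proteasome outside the symbol rule gave 25 tested probe sets of 10 genes, of which 1 rose and 0 fell, with a median change of 0.16. Changes were above 0 in 19 of the 25 (50.1% of all tested). Groups did not overlap for 8 higher and 0 lower (14.9% and 12.5% of all tested). The probe set that rose was a dimmer one of Zfand5, a protein that stimulates the proteasome. It read 179.7, 197.7 and 146.2 against 69.03, 81.63 and 58.46 (1.15 ± 0.21, limma adjusted p = 0.0391). The brightest of Zfand5 changed by 0.16 ± 0.17. Its 2 dimmest tested probe sets were also higher on every knockout array but did not pass (1.11 ± 0.33 and 0.81 ± 0.28). The second of these was tested because the knockouts were above the filter. The 2 genes with the smallest p on their brightest probe sets were Txnl1, a thioredoxin-like protein of the cap (0.45 ± 0.16, limma adjusted p = 0.151), and Akirin2, which brings proteasomes into the nucleus (-0.75 ± 0.34, limma adjusted p = 0.25). The core maturation factor Pomp read 1068, 1007 and 1088 against 932.1, 897 and 857.5 (0.23 ± 0.15, limma adjusted p = 0.427). Sem1 was higher on every knockout array on 2 probe sets, by 0.36 ± 0.18 and 0.50 ± 0.17 (limma adjusted p = 0.288 and 0.15). A dimmer Ecpas probe set changed by 1.19 ± 0.26 (limma adjusted p = 0.0557) and the brightest by 0.10 ± 0.28. Adrm1 and Paaf1 had no probe set with a single symbol.

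Of the genes that control proteasome transcription, 3 were tested and 0 passed (limma; 0 at an unadjusted p under 0.05). Nfe2l1 read 651.3, 557.9 and 309.7 against 521.5, 506.6 and 407.2 (0.02 ± 0.28, limma adjusted p = 0.973), Nfe2l2 changed by 0.21 ± 0.21 and Ngly1, which activates Nfe2l1, by 0.12 ± 0.19. The 6 member genes with the element in their promoter had changes of -0.36 to 0.19 on their brightest probe sets, with a median of -0.02, beside a median of 0.04 for the 32 tested genes whose promoters did not hold it. These are descriptions of a match of letters, and binding was not measured.

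Ubiquitin and delivery genes gave 27 tested probe sets of 12 genes, of which 1 rose and 1 fell, with a median change of 0.03. Rad23b, which shuttles ubiquitinated proteins to the proteasome, fell on its brightest probe set, from 848.1, 855.9 and 667.8 on heterozygous arrays to 396.6, 377 and 283.2 on knockout arrays (-1.14 ± 0.20, limma adjusted p = 0.0384). The changes of its 2 other tested probe sets were -0.21 ± 0.21 and -0.63 ± 0.25. Bag6, a chaperone of mislocalised proteins, changed by -0.85 ± 0.21 (limma adjusted p = 0.0767). The rise was in a dim probe set of Ube3a, a brain ubiquitin ligase, at 113.6, 98.21 and 55.72 against 18.46, 13.79 and 19.22 (1.63 ± 0.29, limma adjusted p = 0.0384). This probe set passed the filter through the knockouts, since its heterozygous mean lay below it, and the brightest Ube3a probe set changed by 0.28 ± 0.20. Vcp, the segregase, and the neuronal hydrolase Uchl1 changed by -0.21 ± 0.21 and 0.03 ± 0.22.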

How the data were processed

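Total RNA was labelled with biotin by the Affymetrix one-cycle method, per the labels' protocols. GCOS is the software named in the submitters' processing notes; the version, summary algorithm and detection calls are not given in the sources used here. Deposited values are linear signal intensities, scaled by the authors to a trimmed mean of 100 per array (2% removed at each end, as the values show). They were kept and transformed here as log2(signal + 16), so folds of dim probe sets are understated. After removal of 64 control probe sets, the 22518 with a mean log2 value above the median were tested with limma 3.58.1 in R 4.3.3 (1 term for group, eBayes with trend, two-sided), with Benjamini-Hochberg adjustment across all probe sets and a threshold of 0.05. Exact permutation tests were two-sided. Genes were named from the platform annotation where a probe set had 1 symbol (34945 probe sets; 932 had several, 9160 none). Precision is limited by 3 arrays per group. The fit was tested on simulated data.

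Described in full were called members, the catalytic, activator and inhibitor genes, the smallest p of each role and 2 genes of each other list; other genes named were chosen as examples with their values in view. The members and lists were chosen with earlier results of these data known. Alternatives were another scaling, added constant, filter or eBayes setting, array weights, arrays left out, and 1 probe set per gene.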

Additional observations from a re-analysis of the deposited data

How the results depend on the processing

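The median change of the tested members was 0.01 and stayed between -0.06 and 0.08 under all alternatives except arrays centred on their medians, where it was -0.39. That centring moved the median of all tested probe sets to -0.40. It shifts every probe set of an array by the same amount, so the members could not change place relative to the table. Quantile normalization gave a median of 0.05 for members and -0.07 for all tested. With centred arrays the whole table gave 581 calls, 100 of them higher, against 280 of 445 with the deposited scaling. Of the members, 1 was called, Psme3, with quantile normalization (127 in the whole table), centred arrays, a floor of 1, no filter (124), no trend (180) and without knockout 67 and 68 together. With the brightest probe set of each gene 0 members were called (116 in the table; limma, 7 members at an unadjusted p under 0.05). More were called with array weights (14 members, 4786 in the table) and without knockout Ko1 and heterozygous 81 together (18 and 4685). Leaving out each array in turn gave 0 to 16 members and 0 to 5226 probe sets in all (limma), the highest without Ko1; the cause was not tested. Psma5 also lost its call with a floor of 1 (adjusted p = 0.053), no filter (0.0834), no trend (0.0782) and without knockout 67 and 68 (0.62, 0.0769), all from limma. Of the 12 other tested probe sets among the members described in full, each the brightest of its gene, 7 changed sign under at least 1 alternative. No called value did. The other members named in the text were not followed through all alternatives. No paired analysis was possible because the groups share no replicate names. With 3 arrays per group and no detection calls, signals as dim as those of Psmb8 and Psmb9 give no bound on a change.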
